A study of Homo sapiens with 18 samples.

Results

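The effect of an NRF1 splice-site guide was compared between 2 base editors, as the SaABE effect minus the SpCBE effect on each expressed gene. Each editor's effect was the log2 ratio of its 3 NRF1-guide libraries to its 3 intergenic-guide libraries, so the comparison rested on 12 of the 18 libraries of the series. All 17743 genes that passed a filter on low counts, of 58870 in the table, were tested. A negative difference means a lower NRF1-guide effect in SaABE than in SpCBE.

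The cells were HEK293T, a human embryonic kidney line, and polyadenylated RNA was sequenced. Per the labels, 750000 cells were transfected with editor and guide, puromycin was applied for 48 hours, and RNA was taken at 72 hours. SaABE (pX462-ABE8e-nSaCas9) joined the adenine deaminase ABE8e to a nickase of Staphylococcus aureus Cas9, and SpCBE (pX461-evoCDA1-nSpCas9) joined the cytosine deaminase evoCDA1 to a nickase of Streptococcus pyogenes Cas9. A further editor, SpABE (pX461-ABE8e-nSpCas9), joined ABE8e to the S. pyogenes nickase, and its 6 libraries served here as a reference outside the difference. Per the study, SpABE and SpCBE used the same intergenic guide, so they shared it as well as the nickase. SaABE and SpCBE differed in deaminase, nickase, plasmid, splice site and both guides, so these features cannot be told apart in the difference. Every group, controls included, carried an editor, expression was transient, the cells were pools, and the gene counts used here do not measure how often the exon was skipped.

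NRF1 (nuclear respiratory factor 1) is a transcription factor that binds GC-rich palindromic elements in promoters, and many genes of mitochondria, DNA replication and metabolism carry such elements. An exon is recognised through an acceptor site at its start and a donor site at its end, where the intron ends in AG and begins with GT. An adenine editor can alter a donor through the base opposite its T, and a cytosine editor can alter an acceptor through the base opposite its G. Each change is meant to make the spliceosome pass over the exon.

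Exon 7 of NRF1 lies on the plus strand at chr7:129710374-129710571 (hg38), is exon 7 of 11 in the canonical GENCODE 44 transcript and has 198 bases, or 66 codons. The 4 guides of the comparison are shown because they define it, 5′ to 3′, with the bases opposite the AG or GT of the splice site in capitals.
SaABE NRF1 guide: ttactcACctggataagtga
SpCBE NRF1 guide: gaaacCTgtcaccaaatgac
SaABE intergenic guide: ccattatcgtgacgctatcg
SpCBE intergenic guide: ttgactgcacacaactgggc

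Each guide of 20 bases had 1 perfect match in hg38. The SaABE NRF1 guide matched the minus strand at chr7:129710560-129710579, with 12 bases in exon 7 and 8 in the intron after it, and the next genomic bases were gacagt. The SpCBE NRF1 guide matched the minus strand at chr7:129710359-129710378, with 5 bases in exon 7 and 15 in the intron before it, followed by cgg. The intergenic guides also differed: the SaABE guide matched chr10:131349102-131349121 on the minus strand, 37381 bases from TCERG1L, the nearest annotated gene. The SpCBE guide matched chr13:102967577-102967596 on the plus strand, 63577 bases from the nearest annotated gene. The targeted splice sites are shown on the plus strand of hg38 with the exon in capitals, at chr7:129710344-129710403 and chr7:129710542-129710601.
Acceptor of exon 7: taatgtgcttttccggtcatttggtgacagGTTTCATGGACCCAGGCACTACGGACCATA
Donor of exon 7: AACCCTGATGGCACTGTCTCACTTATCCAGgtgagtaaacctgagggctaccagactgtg

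The 12 libraries held 28101094 to 40687447 estimated counts, of which 0.939% to 1.19% came from the mitochondrial genome. The 10 most abundant genes took 3.86% to 6.61%. Over these libraries, a first principal component with 34.1% of the variance separated the editors, and a second with 18% separated the guides. All 10 listed genes of the HEK293 lineage were expressed, while summed levels of listed marker genes stayed between 0.453 and 1.19 CPM (counts scaled to TMM-adjusted library size) for endothelial cells and between 4.19 and 6.22 CPM for blood cells. The epithelial sum ran from 8.41 to 14.9 CPM, with 9.81 to 10.7 CPM in SpCBE controls and 8.41 to 9.56 CPM with the NRF1 guide, and with overlap between guides in SaABE. The sum for 10 fibroblast markers, 6 of them tested and none past the adjusted p, ran from 84.4 to 116 CPM and was lower with the NRF1 guide in both editors, and the part of the marker sums in the results was not tested.

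Total NRF1 RNA was examined first, since it is the targeted gene, although gene counts do not separate isoforms. In SaABE, NRF1 stood at 33.1, 32.1 and 31.5 CPM with the intergenic guide and at 40.3, 39.4 and 41.001 CPM with the NRF1 guide. In SpCBE it stood at 24.4, 24.997 and 26.02 CPM with the intergenic guide and at 38.3, 39.5 and 43.8 CPM with the NRF1 guide. The NRF1-guide libraries of both editors covered nearly the same range, and the editors stood apart in their intergenic controls. The effect was 0.32 in SaABE and 0.69 in SpCBE on the log2 scale, a difference of -0.37 ± 0.08 (SE; edgeR quasi-likelihood test, Benjamini-Hochberg adjusted p = 0.00667), past the adjusted p but not past the fold threshold. In these bulk samples, fewer cells with a transcript and less of it per cell cannot be told apart.

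PUDP (pseudouridine 5'-phosphatase), ANKRD26 (an ankyrin repeat protein) and YEATS4 (a chromatin reader of acetylated histones), which the study followed as NRF1 targets, fell in both editors. The log2 effects in SaABE and SpCBE were -1.51 and -1.38 for PUDP, -1.64 and -1.55 for ANKRD26, and -1.50 and -1.51 for YEATS4. Their differences were -0.13 ± 0.11, -0.09 ± 0.10 and 0.01 ± 0.09 (SE; edgeR adjusted p = 0.567, 0.701 and 0.984). None of these 3 genes differed between the editors by more than the spread between libraries, and the sign for YEATS4 was not stable across alternatives.

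Across all genes, 109 (0.614%) were called different, which needed an adjusted p below 0.05 together with a log2 difference beyond 0.5 in size, of which 43 (0.242%) were higher in SaABE and 66 (0.372%) were lower. At the adjusted p alone, 726 genes (4.09%) differed, of which 358 (2.02%) were higher and 368 (2.07%) were lower. The median difference over all genes was 0.00, and 49.6% of genes lay below 0. By comparison, the NRF1 guide itself gave 220 called rises (1.24%) and 854 called falls (4.81%) in SaABE, and 149 (0.840%) and 640 (3.61%) in SpCBE. The calls closest to the fold threshold were OSBPL10 at 0.50 and PLA2G4A at -0.50, and the nearest genes outside it were TUBB3 at 0.48 and STK36 at -0.499. A further 1840 genes passed the fold threshold without passing the adjusted p.

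Effects of opposite sign are favoured by choosing genes on the difference, so the next counts are a description. Of the 66 lower genes, 43 had an effect below 0 in SaABE and above 0 in SpCBE, and of the 43 higher genes, 39 had the reverse, beside 15.9% and 15.8% of all genes. The lower genes were mainly falls in SaABE: 39 were called lower in SaABE and not called in SpCBE, and 5 were called lower in both. The higher genes were mainly small shifts of opposite sign: 25 were called in neither editor, with a median effect of 0.38 in SaABE and -0.28 in SpCBE over all 43. The libraries of the 2 guides did not overlap in SaABE for 60 of the 66 lower genes and 37 of the 43 higher genes, where 40.0% of all genes did not overlap, and in SpCBE for 32 and 27, where 38.8% of all genes did not. Mean levels over the 12 libraries were under 5 CPM for 22 lower and 17 higher genes, and 6 and 5 of them were under 1 CPM.

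**Figure D1:**
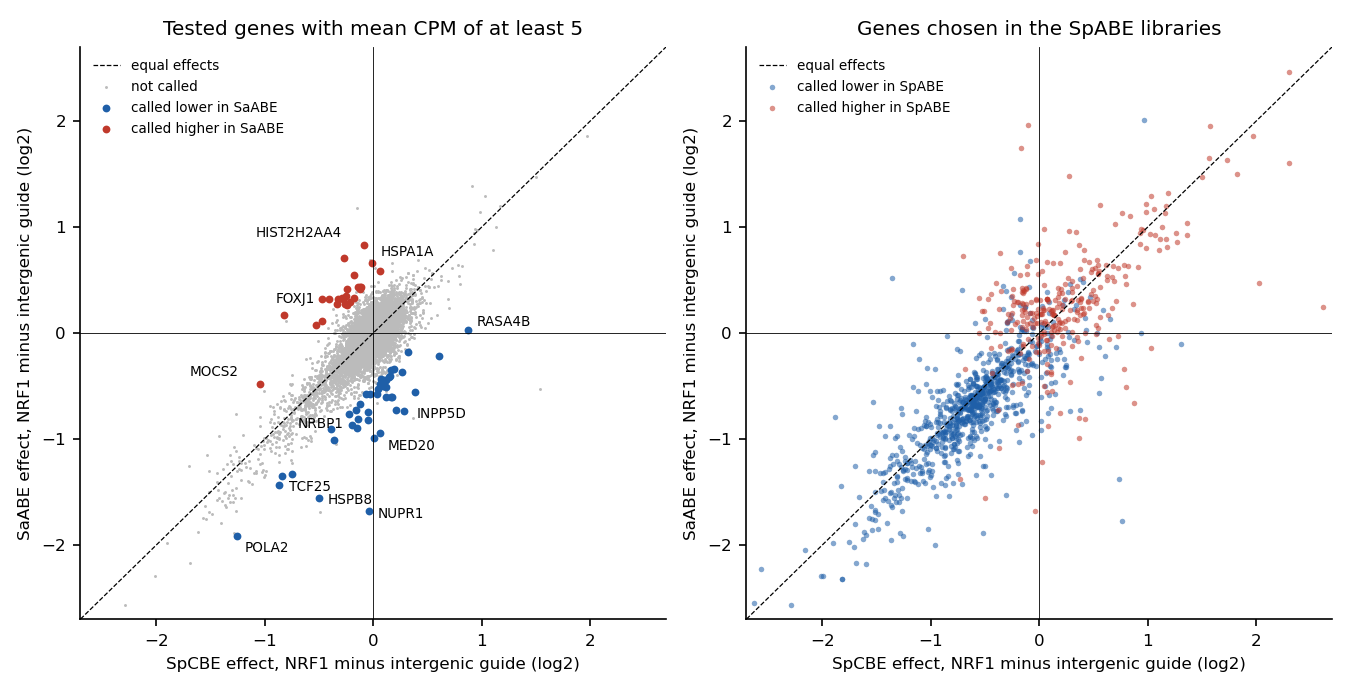
NRF1-guide effect in SaABE (vertical axis, log2) against that in SpCBE (horizontal axis, log2), 1 point per gene, with the dashed line marking equal effects. The left panel draws 11409 genes with a mean of at least 5 CPM, where the called lower genes (blue) lie under the line near an SpCBE effect of 0 and the called higher genes (red) lie above it, mostly left of 0. The right panel draws genes called in the SpABE libraries, without 8 that lie outside the axes, and the falls (blue) follow the line with a slight shift below it.

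The largest group of lower genes fell in SaABE and was not called in SpCBE. Of the 39 genes called lower in SaABE and not in SpCBE, 33 were not called in SpABE either, and 20 had effects within 0.25 of 0 in both SpCBE and SpABE. Their median effect was -0.78 in SaABE, 0.03 in SpCBE and -0.09 in SpABE.

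MED20, a subunit of the Mediator complex that links transcription factors to RNA polymerase II, was among the deepest of these falls. MED20 was at 32.6, 33.6 and 31.8 CPM with the intergenic guide in SaABE and at 16.6, 16.4 and 17.8 CPM with the NRF1 guide. In SpCBE the same 2 guides gave 34.1, 36.7 and 38.4 CPM and 37.7, 38.3 and 37.7 CPM. The 3 SaABE NRF1-guide libraries lay far below all others, while the SpCBE libraries of the 2 guides overlapped. The difference was -1.004 ± 0.07 (SE; edgeR adjusted p = 3.00e-09), and the SpABE effect was 0.06.

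NRBP1, a pseudokinase that acts as an adaptor protein, behaved likewise. NRBP1 levels in SaABE were 97.9, 94.2 and 94.4 CPM with the intergenic guide and 55.3, 54.4 and 52.9 CPM with the NRF1 guide. In SpCBE they were 94.6, 96.6 and 95.2 CPM and 95.6, 88.1 and 93.1 CPM. Intergenic-guide levels were thus alike in the 2 editors, and the SaABE NRF1-guide libraries alone stood apart, for a difference of -0.77 ± 0.05 (SE; edgeR adjusted p = 1.98e-10).

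Genes with mitochondrial roles were among these falls. UQCC1, an assembly factor of respiratory complex III, was at 61.2, 57.1 and 56.9 CPM in the SaABE controls and 30.2, 31.4 and 32.6 CPM with the NRF1 guide. In SpCBE it was at 62.8, 60.9 and 60.9 CPM and 58.3, 53.4 and 54.9 CPM. UQCC1 libraries of the 2 guides did not overlap in either editor, and its effect was -0.89 in SaABE against -0.15 in SpCBE and -0.23 in SpABE (difference -0.75 ± 0.07, SE; edgeR adjusted p = 1.35e-07). MRPL18, a protein of the large mitochondrial ribosomal subunit, was at 168, 187 and 182 CPM and then 118, 117 and 118 CPM in SaABE. The SpCBE libraries were at 90.9, 92.1 and 90.4 CPM and then 104, 101 and 100.4 CPM. MRPL18 therefore lay above its control in SpCBE and below it in SaABE, from higher controls in SaABE, and the difference was -0.77 ± 0.04 (SE; edgeR adjusted p = 1.43e-10). Of 77 mitochondrial ribosome genes tested, MRPL18 was the only one called in either direction, beside 0.614% of all genes. At the adjusted p alone 3 were higher and 1, MRPL18 itself, was lower, beside 2.02% and 2.07% of all genes. When 1 library was left out, 0 to 4 were higher and 1 stayed lower.

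SMUG1 encodes a DNA glycosylase that removes uracil from DNA, the base a cytosine deaminase makes. SMUG1 was at 29.3, 27.5 and 28.5 CPM and 19.3, 21.3 and 19.5 CPM in SaABE with the intergenic and the NRF1 guide. The SpCBE values were 26.6, 27.9 and 30.4 CPM and 31.7, 29.4 and 30.7 CPM. It was lower in all 3 SaABE NRF1-guide libraries, and overlapped between guides in SpCBE (difference -0.62 ± 0.08, SE; edgeR adjusted p = 2.07e-05). UNG and MPG were chosen for mention after their values were seen. UNG, the main uracil glycosylase, fell in both editors, with effects of -1.07 in SaABE and -0.90 in SpCBE, and MPG, the alkyladenine glycosylase, had a difference of -0.18 (edgeR adjusted p = 0.296). Of 26 tested genes of base excision and mismatch repair, 3 were lower and 1 was higher at the adjusted p alone, beside 2.07% and 2.02% of all genes.

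CCDC59, a coiled-coil protein, had effects of -0.60 in SaABE, 0.12 in SpCBE and 0.10 in SpABE. PUS10, a pseudouridine synthase for RNA, was lower expressed, at 5.43, 5.83 and 6.44 CPM in the SaABE controls and 2.55, 2.88 and 3.43 CPM with the NRF1 guide, with an SpCBE effect of 0.00. The same pattern was seen in further called genes that were chosen for mention after their values were seen. HMOX2, the constitutive heme oxygenase, had effects of -0.58, 0.03 and 0.03 in SaABE, SpCBE and SpABE. QPRT, which feeds quinolinate into NAD synthesis, had -0.53, 0.04 and -0.08 in the same order. DPY30, a core subunit of histone H3 lysine 4 methyltransferase complexes, had -0.67, -0.12 and -0.13. Unlike HMOX2 and QPRT, DPY30 had NRF1-guide libraries below the controls in every editor. In each of these genes SaABE stood well away from the pair of S. pyogenes editors, which lay close together.

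**Figure D2:**
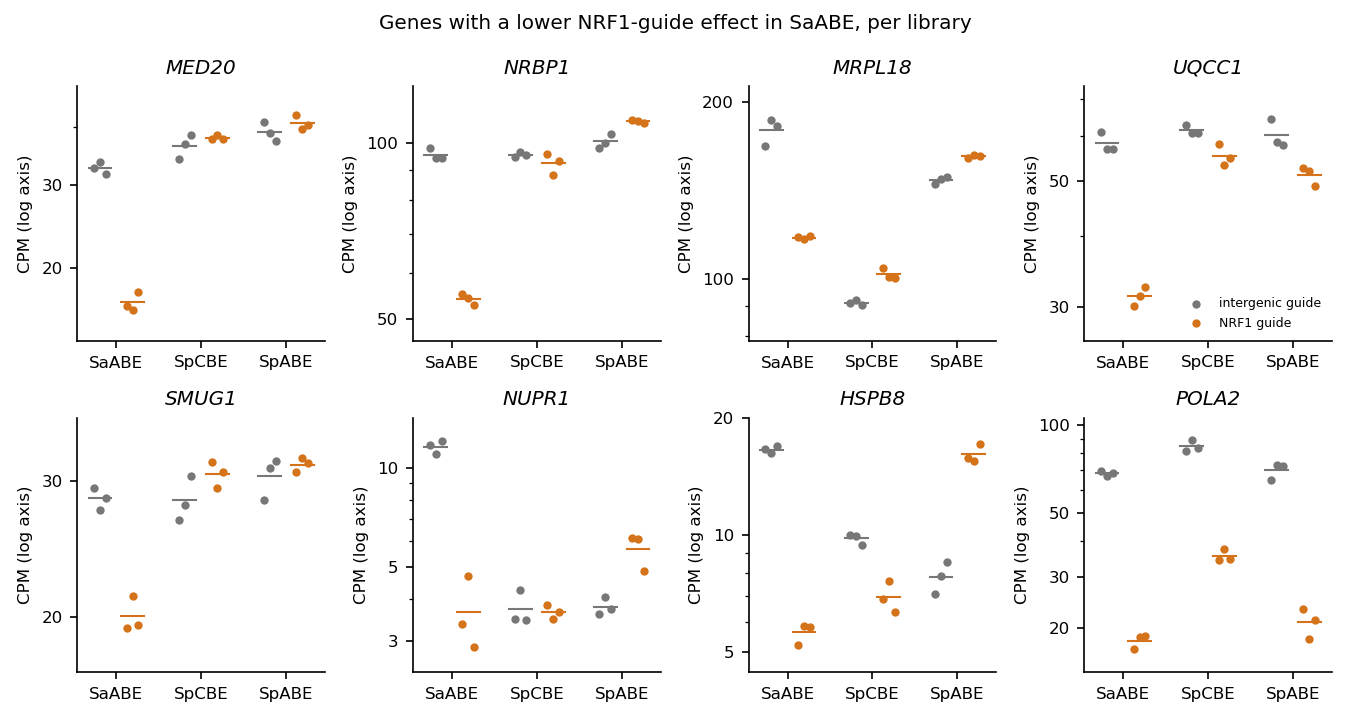
CPM in every library (log vertical axis, dots, with a line at the mean of 3) for 8 genes whose NRF1-guide effect was lower in SaABE, grey for the intergenic guide and orange for the NRF1 guide. In MED20, NRBP1, UQCC1 and SMUG1 the orange SaABE dots sit alone below all other libraries, whereas POLA2 is lower with the NRF1 guide in all 3 editors.

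NUPR1, HSPB8 and ANKRD1 had lower effects in SaABE and rose in SpABE. NUPR1, a small chromatin-associated protein induced by stress, was at 11.7, 11.002 and 12.05 CPM in SaABE controls and at 3.37, 4.72 and 2.87 CPM with the NRF1 guide. In SpCBE it was at 3.497, 4.28 and 3.47 CPM and 3.84, 3.49 and 3.65 CPM. The SaABE controls stood above every other library of the 2 editors, and the SaABE NRF1-guide libraries overlapped the SpCBE range. The NUPR1 difference was -1.64 ± 0.19 (SE; edgeR adjusted p = 6.38e-06), with an SpABE effect of 0.58 in the other direction.

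HSPB8, a small heat-shock protein that acts in chaperone-assisted autophagy, fell in both editors. HSPB8 was at 16.6, 16.2 and 16.9 CPM and 5.24, 5.84 and 5.82 CPM in SaABE, and at 10.02, 9.96 and 9.45 CPM and 6.84, 7.64 and 6.35 CPM in SpCBE. The guides did not overlap in either editor, and the fall was deeper in SaABE (difference -1.06 ± 0.11, SE; edgeR adjusted p = 2.83e-06), while HSPB8 rose by 1.05 in SpABE. ANKRD1, an ankyrin repeat protein induced by YAP signalling, had effects of -0.87 in SaABE, -0.20 in SpCBE and 0.62 in SpABE. Its call was lost without SaABE NRF1 replicate 1 (edgeR adjusted p = 0.0686) and without SaABE intergenic replicate 3 (0.0507).

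INPP5D, an inositol phosphatase best known from blood cells, fell in both adenine editors. INPP5D was at 37.4, 38.9 and 39.6 CPM and 22.6, 24.7 and 22.3 CPM in SaABE, and at 13.5, 15.3 and 11.97 CPM and 16.9, 16.9 and 16.3 CPM in SpCBE. The NRF1-guide libraries were lower in SaABE and higher in SpCBE, with no overlap in either, for a difference of -1.03 ± 0.10 (SE; edgeR adjusted p = 4.02e-07). Its SpABE effect was -0.76. CYP4F3, a hydroxylase of leukotriene B4, had effects of -0.22, 0.60 and -0.78 in SaABE, SpCBE and SpABE, and it passed the adjusted p for a rise in SpCBE. RASA4B, a Ras GTPase activator with a near-identical copy that can share its reads, rose by 0.88 in SpCBE and had an effect of 0.03 in SaABE (edgeR adjusted p of the difference = 0.0491, and above 0.05 in 8 of the 12 fits that left out 1 library). PPAN-P2RY11, a read-through of 2 neighbouring genes, had a difference of -0.94 ± 0.19 (SE) and is uncertain because it shares exons with both.

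A smaller group fell in all 3 editors and fell further in SaABE. POLA2, the regulatory subunit of DNA polymerase alpha, was at 69.7, 67.2 and 68.3 CPM in SaABE controls and 17.01, 18.6 and 18.8 CPM with the NRF1 guide. The SpCBE libraries were at 81.6, 89.1 and 83.7 CPM and 34.3, 37.5 and 34.6 CPM. Every library with the NRF1 guide was below every control library, and the effect was -1.91 in SaABE, -1.74 in SpABE and -1.26 in SpCBE (difference -0.65 ± 0.09, SE; edgeR adjusted p = 7.17e-05). TCF25, a component of ribosome-associated quality control, was chosen for mention after its values were seen. TCF25 was at 42.7 ± 0.379 CPM and 15.8 ± 0.727 CPM in SaABE and at 57.2 ± 1.57 CPM and 31.3 ± 0.799 CPM in SpCBE (SD, n = 3), a difference of -0.56 ± 0.06 (SE; edgeR adjusted p = 1.11e-06). BMS1P4, a pseudogene of a ribosome biogenesis factor, was the SpABE-chosen fall with the widest difference. It was outside this group, since its SpCBE effect of -0.30 was not called and its SpCBE libraries overlapped. Levels of BMS1P4 were only 0.204, 0.725 and 0.33 CPM in SaABE controls and 0 CPM in all 3 SaABE NRF1-guide libraries. It reached at most 1.37 CPM in any library, and its reads can be shared with related copies.

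MOCS2 ran the other way among genes that fell. It encodes the subunits of molybdopterin synthase and was chosen for mention after its values were seen. MOCS2 was at 66.4 ± 1.85 CPM and 47.5 ± 0.95 CPM in SaABE and at 51.9 ± 1.55 CPM and 25.2 ± 0.971 CPM in SpCBE (SD, n = 3). Its effect was -0.48 in SaABE, -0.90 in SpABE and -1.04 in SpCBE, so the SaABE fall was the shallowest (difference 0.56 ± 0.05, SE; edgeR adjusted p = 4.61e-07).

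Promoters were searched for an NRF1 motif of GCGC, then AT, AC or GT, then GCGC, on either strand, in RefSeq windows of 300 bases from 250 before to 50 after the gene start (GRCh38.p14). Promoters were matched for 11631 of the 17743 tested genes, and 5.19% of them held the motif. Of the 66 lower genes, 47 had a promoter and 2 of these held it, POLA2 and UQCC1. Of the 43 higher genes, 24 had a promoter and 0 held it. Among the 834 genes that fell in SpABE, 560 had a promoter and 112 held the motif. The 2 promoter stretches are shown with the first match in capitals and 35 bases on each side, at chr11:65261787-65261866 on the plus strand for POLA2 and chr20:35412044-35412123 on the minus strand for UQCC1.
POLA2: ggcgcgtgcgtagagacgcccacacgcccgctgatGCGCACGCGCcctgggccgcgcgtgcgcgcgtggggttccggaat
UQCC1: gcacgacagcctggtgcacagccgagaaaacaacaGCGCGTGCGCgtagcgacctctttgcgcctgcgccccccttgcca

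The matches began 140 bases before the start of POLA2 and 115 before that of UQCC1. POLA2 held a second match 122 bases before its start. Of the 39 genes that fell in SaABE and were not called in SpCBE, 26 had a promoter, and UQCC1 was the 1 that held the motif.

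Among genes with a higher effect in SaABE, heat-shock chaperones stood out by their levels. Of 9 tested HSP70 and HSP110 family members, 5 were higher and 1 was lower at the adjusted p alone, with a median difference of 0.26, beside 2.02% and 2.07% of all genes and a median of 0.00. Without SaABE NRF1 replicate 1, SpCBE intergenic replicate 1 or SpCBE NRF1 replicate 3, 3 were higher. HSPA1A, the inducible HSP70, was at 291, 272 and 267 CPM in SaABE controls and 408, 484 and 424 CPM with the NRF1 guide. In SpCBE it was at 22.8, 28.97 and 26.996 CPM and 28.3, 21.6 and 28.5 CPM. SaABE libraries of the 2 guides did not overlap and SpCBE libraries did, for a difference of 0.67 ± 0.11 (SE; edgeR adjusted p = 9.70e-04). HSPA1A and HSPA1B are near-identical and reads can be split between them, and HSPA1B had a difference of 0.43, with effects of 0.25 and -0.18.

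The starting levels of these genes were far apart between the editors. Summed over the 9 chaperones, the SaABE controls held 23240 to 24192 CPM and the SpCBE controls held 7039 to 7275 CPM. With the NRF1 guide the sums were 25766 to 27498 CPM in SaABE and 6433 to 6927 CPM in SpCBE. The part of these starting levels in the difference was not tested. HSPA6, a strictly inducible HSP70, was at 3538, 3593 and 3562 CPM and 4072, 4436 and 4007 CPM in SaABE, and at 217, 229 and 224 CPM and 199, 203 and 205 CPM in SpCBE. The NRF1-guide libraries lay above their controls in SaABE and below them in SpCBE (difference 0.37, edgeR adjusted p = 7.00e-06).

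Of 21 tested small heat-shock proteins and co-chaperones, 6 were higher and 1, HSPB8, was lower at the adjusted p alone, beside 2.02% and 2.07% of all genes, with a median difference of 0.11. DNAJB1, the main J-domain partner of inducible HSP70, was at 2505, 2597 and 2585 CPM and 3106, 3167 and 2977 CPM in SaABE. The SpCBE libraries were at 388, 382 and 389 CPM and 386, 365 and 377 CPM. The difference was 0.31 ± 0.04 (SE; edgeR adjusted p = 7.06e-06), past the adjusted p but under the fold threshold. Chosen after their values were seen, HSP90AA1, the inducible cytosolic HSP90, had a difference of 0.33 ± 0.05 and BAG3, a co-chaperone of HSP70, one of 0.25 ± 0.05 (SE).

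CHORDC1, a co-chaperone of HSP90, fell in SpCBE and also in SpABE, where its effect was -0.32. CHORDC1 was at 179, 161 and 162 CPM and 121, 123 and 116 CPM in SpCBE, with no overlap, and at 432, 507 and 469.6 CPM and 531, 498 and 489.6 CPM in SaABE, with overlap (difference 0.59 ± 0.07, SE; edgeR adjusted p = 6.38e-06). Its promoter was the 1 of 24 searchable promoters of higher genes with a heat-shock element, against 0.361% of all tested genes with a promoter. The element was 3 alternating units of GAA and TTC spaced by NN, searched on both strands without mismatches. HSPA6 and the mitochondrial ribosome gene MRPL51, which were not called, also held it. The CHORDC1 stretch at chr11:90223062-90223144 (GRCh38.p14, minus strand) is shown with the element in capitals, which began 60 bases before the start.
CHORDC1: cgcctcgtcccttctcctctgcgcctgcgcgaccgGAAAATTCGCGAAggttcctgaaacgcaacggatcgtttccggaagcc

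**Figure D3:**
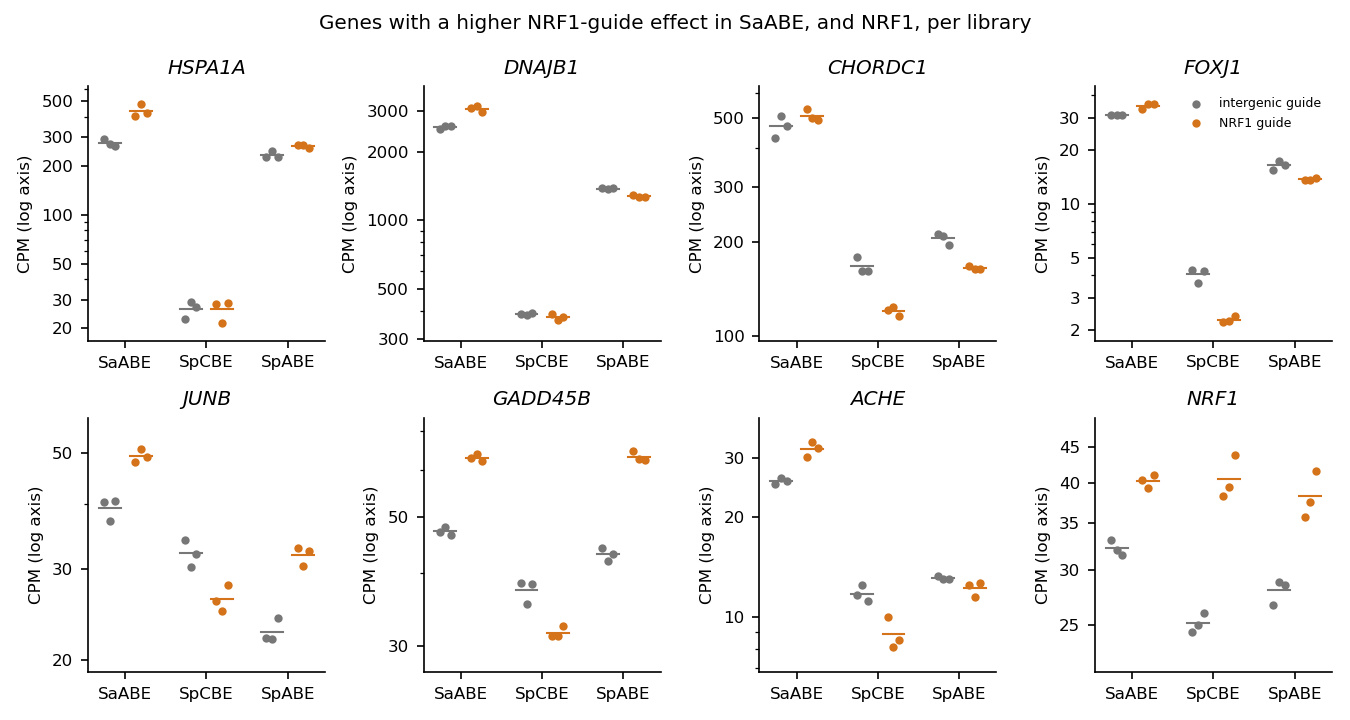
CPM in every library (log vertical axis, dots, with a line at the mean of 3) for 7 genes whose NRF1-guide effect was higher in SaABE, and for NRF1, grey for the intergenic guide and orange for the NRF1 guide. HSPA1A, DNAJB1, CHORDC1 and FOXJ1 start from higher control levels in SaABE than in SpCBE, and JUNB and GADD45B lie above their controls in both adenine editors and below them in SpCBE.

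Immediate-early genes, which respond within minutes to growth factors and stress, had more higher than lower members. Of 33 tested, 11 were higher and 1 was lower at the adjusted p alone, beside 2.02% and 2.07% of all genes, 30 had a difference above 0, and the median was 0.22, beside 0.00 over all genes. JUNB, a subunit of the AP-1 transcription factor, was at 40.3, 37.1 and 40.5 CPM and 47.97, 51.01 and 49.1 CPM in SaABE. In SpCBE it was at 33.997, 30.2 and 32.02 CPM and 25.99, 24.9 and 27.9 CPM. The NRF1-guide libraries lay above their controls in SaABE and below them in SpCBE, without overlap (difference 0.62 ± 0.07, SE; edgeR adjusted p = 1.25e-05). The SpABE effect of JUNB was 0.49.

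EGR1 and FOS, further immediate-early transcription factors chosen for mention after their values were seen, were called as well. EGR1 was at 59.6, 54.9 and 61.3 CPM and 87.3, 93.5 and 82.8 CPM in SaABE and at 16.1, 13.8 and 14.2 CPM and 15.1, 16.1 and 14.96 CPM in SpCBE. Its effect was 0.58 in SaABE and 0.07 in SpCBE, from SaABE controls well above those of SpCBE. FOS had effects of 0.26 in SaABE, -0.24 in SpCBE and 0.70 in SpABE. IER2 and PPP1R15A, a phosphatase subunit that reverses stress-induced translational arrest, had differences of 0.38 ± 0.05 and 0.33 ± 0.04 (SE; edgeR adjusted p = 5.56e-05 and 2.61e-06).

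GADD45B, a stress-induced regulator of kinase signalling, had the smallest p among the higher genes. GADD45B was at 46.998, 48.1 and 46.4 CPM and 62.9, 64.03 and 62.3 CPM in SaABE and at 38.4, 35.5 and 38.3 CPM and 31.2, 31.2 and 32.4 CPM in SpCBE. The guides did not overlap in either editor and moved apart in opposite directions (difference 0.66 ± 0.05, SE; edgeR adjusted p = 2.78e-08). Its SpABE effect was 0.55, on the side of SaABE.

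FOXJ1, the transcription factor that drives motile cilia, had the largest positive difference among genes of at least 5 CPM. FOXJ1 was at 31.1, 31.1 and 31.2 CPM and 33.4, 35.7 and 35.7 CPM in SaABE. The SpCBE libraries were at 4.302, 3.62 and 4.24 CPM and 2.21, 2.22 and 2.38 CPM. It fell in SpCBE and was slightly above its control in SaABE, from much higher control levels in SaABE (difference 0.99 ± 0.11, SE; edgeR adjusted p = 4.39e-06). Its SpABE effect was -0.26.

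ACHE, the acetylcholinesterase, was at 25.1, 26.2 and 25.5 CPM and 30.2, 33.6 and 32.3 CPM in SaABE and at 11.6, 12.4 and 11.2 CPM and 9.95, 8.11 and 8.53 CPM in SpCBE. The guides did not overlap in either editor and moved in opposite directions (difference 0.73 ± 0.09, SE; edgeR adjusted p = 2.97e-05). VGF, a neuropeptide precursor, had effects of 0.32, -0.47 and 0.67 in SaABE, SpCBE and SpABE. INHBB and INHBE, beta subunits of activins, had 0.32 and 0.08 in SaABE against -0.32 and -0.53 in SpCBE, and the INHBE call was lost in 8 of the 12 fits that left out 1 library.

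IGF2, an insulin-like growth factor, had 0.28 in SaABE and -0.33 in SpCBE, and its call was lost without SpCBE NRF1 replicate 2 (edgeR adjusted p = 0.0619). C11orf96, a small open reading frame gene, rose in both adenine editors, by 0.55 in SaABE and 1.003 in SpABE, with -0.17 in SpCBE. HIST2H2AA4, a histone H2A gene with an identical copy, and RPL24P4, a pseudogene of a ribosomal protein, had differences of 0.92 ± 0.20 and 0.98 ± 0.24 (SE) but are uncertain because their reads match other genes. The RPL24P4 call was lost in 4 of the 12 fits that left out 1 library, those without SaABE NRF1 replicate 2, SpCBE NRF1 replicate 1 or 2, or SpCBE intergenic replicate 3.

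**Figure D4:**
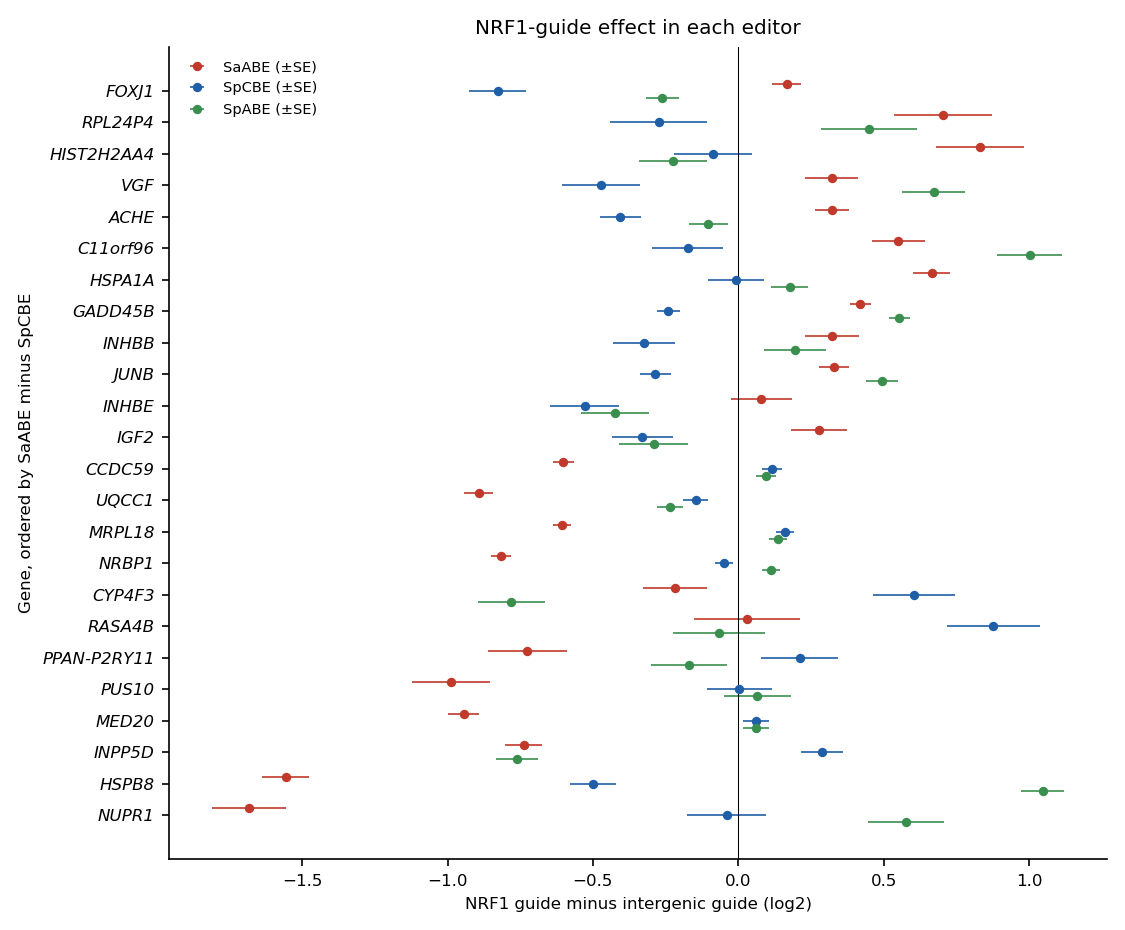
NRF1-guide effect (horizontal axis, log2, with SE bars) in SaABE (red), SpCBE (blue) and SpABE (green) for the 12 called genes of at least 5 CPM with the largest difference in each direction. For MED20, NRBP1, MRPL18 and CCDC59 the red point stands alone to the left, and for JUNB, GADD45B, VGF and C11orf96 the blue point stands alone to the left.

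The called genes were chosen on SaABE and SpCBE values, so the position of SpABE between them is a description. For 50 of the 66 lower genes the SpABE effect lay nearer to SpCBE than to SaABE, and for 25 of the 43 higher genes it lay nearer to SaABE, while over all genes SpABE lay nearer to SpCBE for 52.98%. These counts include genes in which SpABE lay outside both, such as HSPB8 and NUPR1. SpABE shared its nickase and intergenic guide with SpCBE and its deaminase with SaABE. The part of each in these counts was not tested. The median SpABE effect was -0.10 over the lower genes and 0.18 over the higher genes.

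Genes were also chosen by their calls in the SpABE libraries, which entered neither effect. The 834 genes called lower in SpABE (4.70% of those tested) had a median effect of -0.68 in SaABE and -0.60 in SpCBE. Of them, 540 (64.7%) were called lower in SaABE and 489 (58.6%) in SpCBE, beside 4.81% and 3.61% of all genes. Their median difference was -0.08, and 555 of 834 (66.5%) had a difference below 0, beside 49.6% of all genes. At the adjusted p alone, 52 of the 834 were lower (6.24%, against 2.07% of all genes) and 11 were higher (1.32%, against 2.02%). With a replicate block the 52 became 34, and the 11 ranged from 4 (without SpCBE NRF1 replicate 3) to 15 when 1 library was left out, with 5 without SpCBE intergenic replicate 3 and 7 without SaABE NRF1 replicate 1, SpCBE NRF1 replicate 1 or SpCBE intergenic replicate 2. Of the 834, 12 were called for the difference, beside 0.614% of all genes. Of these 12, 11 were lower, POLA2, TCF25 and INPP5D among them, and MOCS2 was higher.

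The 303 genes called higher in SpABE (1.71%) had a median effect of 0.24 in SaABE and 0.15 in SpCBE. Of them, 58 (19.1%) were called higher in SaABE and 53 (17.5%) in SpCBE, beside 1.24% and 0.840% of all genes. The effect had the opposite sign to SpABE for 68 in SaABE and 98 in SpCBE. For the difference, 16 were higher at the adjusted p alone (5.28%, against 2.02% of all genes) and 5 were lower (1.65%, against 2.07%). Of the 303, 13 were called for the difference, beside 0.614% of all genes. Of these 13, 10 were higher, FOS, VGF, GADD45B and C11orf96 among them, and the 3 lower were NUPR1, HSPB8 and ANKRD1.

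In 13 of 41 gene lists no member passed the adjusted p, among them proteasome subunits (33 tested), mitochondrial import (31), factors that express the mitochondrial genome (30), the mitochondrial genome itself (13), glycolysis (19), hypoxia targets (19) and interferon-stimulated genes (31), which says that no difference was detected, not that there was none. Over all genes 2.02% were higher and 2.07% were lower at the adjusted p, shares to set beside each list that follows. The cytosolic ribosome had 5 higher and 1 lower of 76, with 63 differences above 0 and a median of 0.05. From 0 to 7 were higher when 1 library was left out. Respiratory complexes II and III had 0 higher and 2 lower of 13. Complexes IV and V had 0 higher and 3 lower of 30 (1 lower without SaABE intergenic replicate 3 or SaABE NRF1 replicate 3), and complex I had 1 higher and 0 lower of 37. Of 20 nuclear genes named as NRF1 targets in textbooks, 1 was higher, ALAS1 (difference 0.22, edgeR adjusted p = 0.00236), the rate-limiting enzyme of heme synthesis.

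A list of 19 genes known from earlier results to fall with the NRF1 guide in these libraries fell in all 19 cases in both editors, and 6 were lower in SaABE at the adjusted p, with a median difference of -0.18. That list was chosen on these samples, so it is no independent evidence of direction. Besides POLA2, they included N6AMT1, a methyltransferase chosen for mention after its values were seen (-2.17 in SaABE and -1.69 in SpCBE), ATP6V0E2, which belongs to the vacuolar proton pump (-1.79 and -1.41), and SDHA, the flavoprotein of respiratory complex II (-0.95 and -0.71). Of 10 genes known to rise, 1 was lower in SaABE.

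Endoplasmic reticulum stress genes of the unfolded protein response had 8 higher and 1 lower of 22, beside 2.02% and 2.07% of all genes, with a median of 0.09, among them CANX, a lectin chaperone (0.19 ± 0.04, SE), and DNAJB9, a J-domain cofactor of the lumen (0.38 ± 0.08, SE). Leaving out SpCBE NRF1 replicate 2 or SpCBE intergenic replicate 3 left 4 higher, and leaving out SpCBE intergenic replicate 2 left 5. The 24 genes of the integrated stress response had 2 higher and 3 lower, the largest being NUPR1, and the higher members ranged from 0 to 2 when 1 library was left out. ATF5, a transcription factor of that response, rose in both editors, by 0.79 in SaABE and 1.11 in SpCBE. Beside 2.07% of all genes lower, 4 of 38 G1/S genes were lower and 0 higher, with POLA2 and POLD1, a DNA polymerase delta subunit (-0.35 ± 0.07, SE), and 4 of 40 G2/M genes were lower and 0 higher (0 to 1 higher when 1 library was left out), with NUSAP1, a spindle protein (-0.36 ± 0.05, SE). The list medians were -0.06 and 0.02. Cholesterol synthesis had 0 higher and 3 lower of 24, led by SREBF1, a transcription factor of lipid synthesis (-0.39 ± 0.08, SE).

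**Figure D5:**
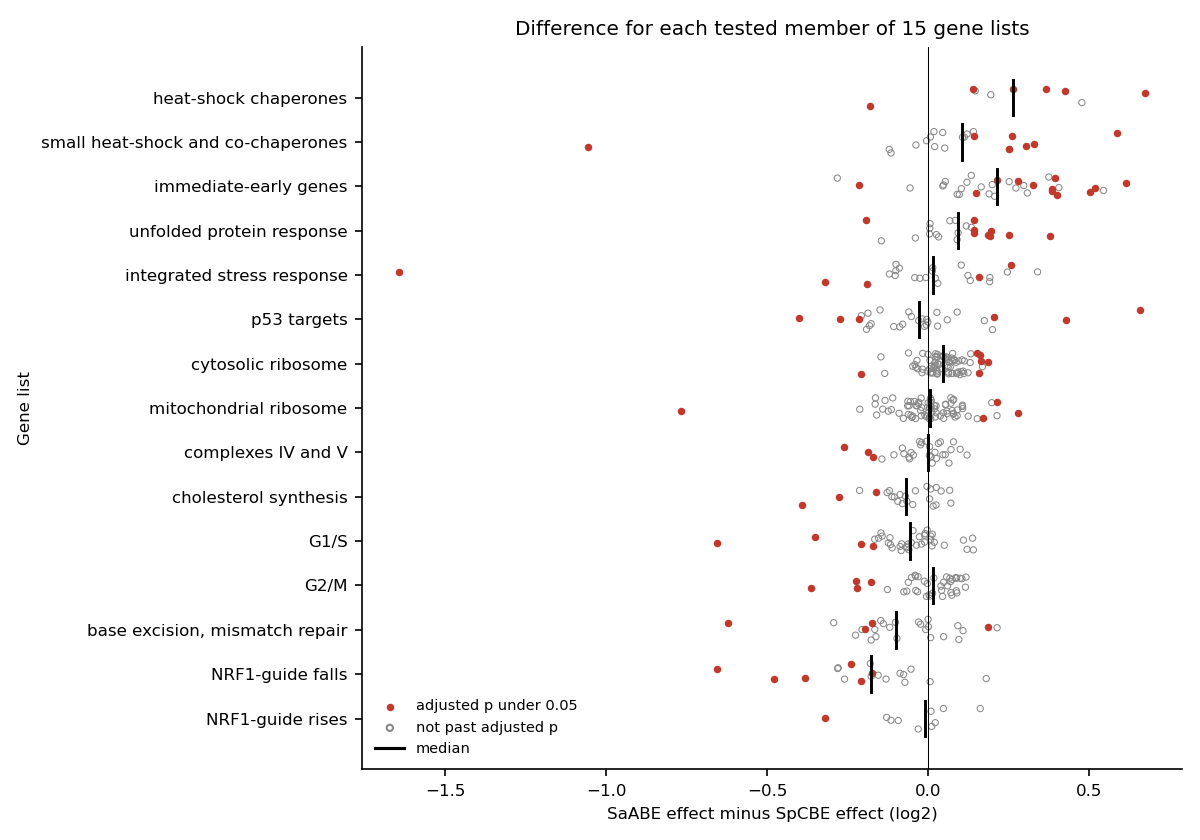
SaABE effect minus SpCBE effect (horizontal axis, log2) for each tested member of 15 gene lists, red where the adjusted p was under 0.05, with the list's median as a bar. Immediate-early genes and chaperones spread to the right of 0 with medians of 0.22 and 0.26, and the mitochondrial ribosome has a median of 0.01 with MRPL18 far to the left at -0.77.

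HMOX1, the inducible heme oxygenase, had a difference of 0.36 ± 0.05 (SE; edgeR adjusted p = 2.41e-04) through a lower level in SpCBE, where it was at 113, 119.7 and 116 CPM and 92.99, 89.3 and 89.4 CPM. In SaABE it was at 91.1, 89.8 and 89.7 CPM and 87.9, 94.6 and 88.3 CPM, with overlapping guides, and in SpABE its effect was 0.89. DDB2, a DNA damage recognition factor, had -0.19 in SaABE and 0.21 in SpCBE, and BBS4, a subunit of the BBSome of cilia, had -0.27 and 0.15.

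Near matches of the guides were counted within genes and 1000 bases on each side, for the 17641 tested genes located in GENCODE 44. A site with 1 to 3 mismatches to the SaABE NRF1 guide lay at 0 of the 66 lower genes and 0 of the 42 located higher genes, beside 0.533% of all genes. With up to 4 mismatches, 7 of the 66 lower genes (10.6%) and 1 of the 42 located higher genes (2.38%) held a site, beside 5.62% of all genes. Of the 39 genes that fell in SaABE and were not called in SpCBE, 3 held such a site (7.69%). These were UQCC1, SORL1 (named after its value was seen) and PUS10. For the SpCBE NRF1 guide, 0 lower and 0 higher genes held a site with up to 3 mismatches, beside 0.624% of all genes. With up to 4 mismatches to that guide, 6 lower (9.09%) and 2 higher genes (4.76%) held a site, beside 7.14% of all genes. Adjacent motifs were not required in this search, and no site was tested for editing.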

How the data were processed

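RNA-seq of HEK293T cells was read from estimated counts per gene that the authors deposited. Per the labels and methods, reads were trimmed with cutadapt 1.18 and aligned with STAR 2.7.0f to hg38. For the counting program and its strand setting, the sources used here give none, and 19.6% of nonzero values were not whole. Columns for 18 further samples were not used. The counts were rounded and fitted in edgeR 4.0.16 (R 4.3.3, quasi-likelihood, TMM, Benjamini-Hochberg) with 6 group means over 18 libraries of 3 replicates each, after filterByExpr. Genes were called at an adjusted p below 0.05 with a log2 difference beyond 0.5 in size. Nothing says that replicates were separate cultures beyond their labels, so p-values measure the spread between these samples.

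Genes named are NRF1, PUDP, ANKRD26 and YEATS4, the 12 largest called differences in each direction with a mean of at least 5 CPM and a gene symbol that is no clone name, up to 3 members per list with the smallest p, and the SpABE-chosen gene with the largest difference in each direction; others are marked where named. The members, lists and rules were chosen with earlier results of these data known. On simulated data, 88% of 100 genes changed by 1.5-fold and 100% of 100 changed by 2-fold were called. In the same data 5 unchanged genes were called, with 17626 genes tested in all. The changed genes were all drawn from those with a mean of at least 5 CPM, so recovery at lower levels was not tested. Alternatives covered scaling, filters, thresholds, DESeq2 1.42.0, limma-voom 3.58.1, rounding, a replicate block and leaving out each library.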

Additional observations from a re-analysis of the deposited data

Results flagged for a closer look

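The effect of the NRF1 guide differed between SaABE and SpCBE by the edgeR interaction test in each of the 25 genes that follow, given as the log2 difference. Lower in SaABE were BMS1P4 (-6.56, a fitted value with 0 CPM in 1 group), NUPR1 (-1.64), HSPB8 (-1.06), INPP5D (-1.03), MED20 (-1.004), PUS10 (-0.99), PPAN-P2RY11 (-0.94), RASA4B (-0.85), CYP4F3 (-0.82), NRBP1 (-0.77), MRPL18 (-0.77), UQCC1 (-0.75) and CCDC59 (-0.72). Higher in SaABE were FOXJ1 (0.99), RPL24P4 (0.98), HIST2H2AA4 (0.92), VGF (0.79), ACHE (0.73), C11orf96 (0.73), HSPA1A (0.67), GADD45B (0.66), INHBB (0.65), JUNB (0.62), INHBE (0.61) and IGF2 (0.61).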

How the results depend on the processing

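The count of 109 called genes was 726 (358 higher, 368 lower) at the adjusted p alone, 23 (6 and 17) at a log2 threshold of 1 and 219 (99 and 120) with no filter on low counts. It was 109 with RLE size factors and with unrounded counts, 116 with a floor of 1 CPM in 3 or more libraries, 99 with the 12 libraries only, 81 with DESeq2, 98 with limma-voom, and 81 to 137 when 1 library was left out (29 to 52 higher, 52 to 85 lower). Among genes called lower in SpABE, the 11 higher in SaABE at the adjusted p became 19 with no filter and 7 with 12 libraries, and 4 to 15 when 1 library was left out. The 5 genes called higher in SpABE that were lower in SaABE became 15 with no filter. Choosing SpABE genes by adjusted p alone gave 3061 lower genes (133 negative, 51 positive differences) and 2727 higher genes (68 negative, 148 positive). The cause of these changes was not tested beyond the thresholds and sample numbers themselves.

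The replicate numbers did not pair the samples of SaABE and SpCBE: deviations of same-numbered libraries over 8872 genes correlated at -0.39, -0.35 and -0.07 in SaABE and at 0.03, 0.04 and 0.10 in SpCBE. In SpABE, which chose the 834 and 303 genes, they correlated at 0.16, 0.11 and 0.13, all above 0.1. Across numbers in SaABE, intergenic replicate 1 correlated with NRF1 replicate 2 at 0.35, and intergenic replicate 2 with NRF1 replicate 1 at 0.34. The remaining SaABE pairs of unlike number ran from -0.05 to 0.13. What these SaABE libraries shared was not tested. With a replicate block 92 genes were called (35 higher, 57 lower), 34 in place of 52 SpABE-chosen falls were lower in SaABE, and the INHBE call was lost (edgeR adjusted p = 0.0799). The sign turned for the gene YEATS4 with no filter (-0.00131), with 12 libraries (-0.00588) and in 6 of 12 fits without 1 library, all of which ranged from -0.060 to 0.076. Without 1 library the sign also turned for NEAT1 (-0.17 to 0.047), KDR (-0.14 to 0.29) and EPCAM (-0.079 to 0.23). None of these 4 genes was called. Of 29 named called genes, 28 stayed past the adjusted p with DESeq2 and 0 lost it, and the gene left over had no DESeq2 adjusted p. RASA4B was lost with limma-voom (adjusted p = 0.0805). Leaving out 1 library kept 325 calls and lost 23, in RASA4B, INHBE, RPL24P4, ANKRD1 and IGF2. Depth limits low genes such as BMS1P4.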
